A study of Mus musculus with 4 samples.

Results

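The cells described here form the mesothelial fraction of the fetal mouse thymus dissection, a sheet of flat epithelial-like cells that lines body cavities and covers the organs in them. They were selected on their measured RNA, by at least 2 unique molecular identifiers (UMIs, each 1 counted RNA molecule) of the uroplakin Upk3b and at least 1 of the keratin Krt19, with 0 UMIs of Psmb11 (thymic cortical epithelium), Ptprc (CD45, blood cells) and Cdh5 (endothelium). The gate took 310 of 29510 kept cells, where a kept cell had at least 200 detected genes and at most 10% of its UMIs from mitochondrial genes. Single-cell RNA sequencing was run on thymic lobes of E13 to 13.5 embryos from intercrosses of Tbx1+/neo2 mice, a model of 22q11.2 deletion syndrome in which Tbx1 carries an intronic neomycin cassette that lowers its expression. The 4 libraries were Tbx1+/+ carrier, Tbx1neo2/neo2 carrier, Tbx1neo2/neo2 minoxidil and Tbx1neo2/neo2 PGE2, and the pregnant mice had been injected at E8, E9 and E10 with 5% ethanol carrier, with the vasodilator minoxidil (200 µl of 0.55 mg/ml) or with prostaglandin E2 (PGE2, 90 µl of 3.6 ng/µl). The embryos of all 4 libraries therefore came from injected mothers. The study states that lobes were pooled for the hypoplastic tissues. The number of embryos in a library was not given in the sources used here. With 1 library per condition no difference between conditions has a replicate check, no p-value is given, and the 95% intervals (exact Poisson for levels, exact Clopper-Pearson for shares) cover counting error only.

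Mesothelium derives from lateral plate mesoderm and carries both faces: keratins, an apical coat of glycoproteins and cell junctions like an epithelium, and vimentin and collagens like a mesenchyme. Embryonic mesothelium is known for the transcription factor Wt1 and for Aldh1a2, the enzyme that makes retinoic acid from retinaldehyde, and it can release cells into the underlying tissue by an epithelial to mesenchymal transition. Immediate early genes such as Fos and Jun encode transcription factors that cells switch on within minutes of many stimuli, tissue dissociation among them.

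Gene positions are those of GENCODE vM21 on GRCm38, the assembly behind mm10. Upk3b, which set the gate, lies on chromosome 5 at 136038496 to 136046487 on the plus strand. Its promoter is shown because it marks these cells. That of the leucine-rich repeat gene Lrrn4 is shown because it had the largest excess in them. This ranking covers genes that the gate did not use and that reached the level limit given below. The RefSeq windows run from 250 bases before to 50 bases after the gene's start on GRCm38.p6, at chr5:136038246-136038545 (plus strand) and chr2:132880813-132881112 (minus strand), and capitals mark GGAATG, the letters that TEAD factors read, and GATAAG, those of GATA factors, on either strand.
Upk3b: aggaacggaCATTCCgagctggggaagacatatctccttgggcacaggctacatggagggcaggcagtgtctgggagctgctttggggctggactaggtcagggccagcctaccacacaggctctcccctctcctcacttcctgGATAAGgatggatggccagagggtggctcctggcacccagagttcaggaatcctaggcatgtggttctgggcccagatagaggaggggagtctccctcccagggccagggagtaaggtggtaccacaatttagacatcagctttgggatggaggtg
Lrrn4: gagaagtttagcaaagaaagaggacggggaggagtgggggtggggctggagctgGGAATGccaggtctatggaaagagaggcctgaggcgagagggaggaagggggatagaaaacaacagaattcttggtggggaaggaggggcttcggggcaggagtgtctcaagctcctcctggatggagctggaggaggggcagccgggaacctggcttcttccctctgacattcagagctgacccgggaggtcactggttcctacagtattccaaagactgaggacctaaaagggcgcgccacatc
Of the 20 leading genes named below, 16 had a promoter entry, and 5 of these held GGAATG or its reverse complement, against 14.6% of all 27025 promoters in the table. GATAAG or its reverse complement was in 3 of the 16, against 7.43% of all promoters. A match is a run of letters, not a measured binding site.

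The gate kept 197 of 11474 cells of Tbx1+/+ carrier, 43 of 10683 of Tbx1neo2/neo2 carrier, 53 of 3201 of Tbx1neo2/neo2 minoxidil and 17 of 4152 of Tbx1neo2/neo2 PGE2. Median depth per mesothelial cell was 19668, 21671, 36845 and 29756 UMIs in the same order, and the summed UMIs behind every level below were 4158107, 1117108, 2234420 and 538610. The PGE2 library, with the fewest mesothelial cells and UMIs, is the least precise. Its smallest cell held only 530 UMIs, with 3 of Upk3b, and the largest cell of the minoxidil library held 211606, or 9.47% of all mesothelial UMIs of that library. Between 4 and 35 barcodes were shared by any pair of libraries, and 0 of them belonged to mesothelial cells. The doublet caller Scrublet marked 4 mesothelial cells of Tbx1+/+ carrier and 0 in the other libraries, but it marked 0 of all 10683 cells of Tbx1neo2/neo2 carrier and so had not worked there.

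At the edge of the gate, 13 members had exactly 2 Upk3b UMIs, of which 12 had a Wt1 UMI and 13 an Aldh1a2 UMI. Just outside it, 29 cells met every other condition with 1 Upk3b UMI, and 18 of them had Wt1 and 18 Aldh1a2. Of these 29 cells, 26 were in Tbx1+/+ carrier. A further 14 cells had 2 or more Upk3b UMIs but no Krt19, and 13 of these had Wt1. The negative conditions removed 30 cells for Psmb11, 23 for Ptprc and 5 for Cdh5, some for more than 1 gene, and an Aldh1a2 UMI was found in 30, 23 and 4 of these. Most were in Tbx1+/+ carrier, with 24, 19 and 4 cells. There the negative conditions took 238 cells to 197, against 46 to 43 in Tbx1neo2/neo2 carrier, 56 to 53 with minoxidil and 19 to 17 with PGE2. Among cells with at least 2 Ptprc UMIs, which should lack both gate genes, the share with 2 Upk3b UMIs and 1 Krt19 UMI was 0.599% of 2337 in Tbx1+/+ carrier (0.328 to 1.0) and 0.144% of 693 with minoxidil (0.00365 to 0.801), with intervals below those of the mesothelial shares given next. It was 0.111% of 900 in Tbx1neo2/neo2 carrier (0.00281 to 0.618) and 0 of 1150 with PGE2, where 3 counts would be 0.261% and the interval reaches 0.320%, and these intervals overlapped those of the mesothelial shares.

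Mesothelial cells made up 1.72% of kept cells in Tbx1+/+ carrier (95% interval 1.49 to 1.97) and 0.403% in Tbx1neo2/neo2 carrier (0.291 to 0.542). The share was 1.66% with minoxidil (1.24 to 2.16) and 0.409% with PGE2 (0.239 to 0.655). Thus the share was 4.27-fold lower in the Tbx1neo2/neo2 carrier library than in Tbx1+/+ carrier, 4.11-fold higher with minoxidil than in the Tbx1neo2/neo2 carrier library, and 1.02 times that library's value with PGE2, whose interval overlapped it. Depth differed between libraries, with a median of 21125, 14108, 41084 and 34790 UMIs over all kept cells, so each cell was also thinned to 5000 UMIs. The gate then took 129 of 10437, 27 of 9333, 27 of 2952 and 11 of 3724 cells, or 1.24%, 0.289%, 0.915% and 0.295%, with 1037, 1350, 249 and 428 shallower kept cells left out. The order of the libraries was kept and the minoxidil excess fell to 3.16-fold. With a mitochondrial limit of 5% the shares were 0.887%, 0.355%, 1.14% and 0.351%, so the carrier libraries differed 2.50-fold and minoxidil stood 3.22-fold above Tbx1neo2/neo2 carrier, with an interval (0.742 to 1.69) that overlapped that of Tbx1+/+ carrier (0.678 to 1.14).

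The other cell types also differed in number between the libraries, and their part in these shares was not tested. Mesenchymal reference cells (at least 2 UMIs each of the fibroblast genes Pdgfra and Col1a2, and no Upk3b, Epcam, Psmb11, Ptprc or Cdh5) numbered 1750, 3068, 713 and 535. Of mesothelial and mesenchymal reference cells together, mesothelial cells were 10.1% in Tbx1+/+ carrier (8.81 to 11.5), 1.38% in Tbx1neo2/neo2 carrier (1.0 to 1.86), 6.92% with minoxidil (5.23 to 8.95) and 3.08% with PGE2 (1.80 to 4.89). On this count the Tbx1neo2/neo2 carrier library was 7.32-fold below Tbx1+/+ carrier and 5.01-fold below minoxidil, and the PGE2 value was 2.23-fold above it with intervals that overlapped. Of kept cells passing the 3 negative conditions, mesothelial cells were 3.97%, 0.518%, 3.48% and 0.969%, which made the Tbx1neo2/neo2 carrier library 7.66-fold below Tbx1+/+ carrier and 6.72-fold below minoxidil, and PGE2 1.87-fold above it with overlapping intervals.

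**Figure D1:**
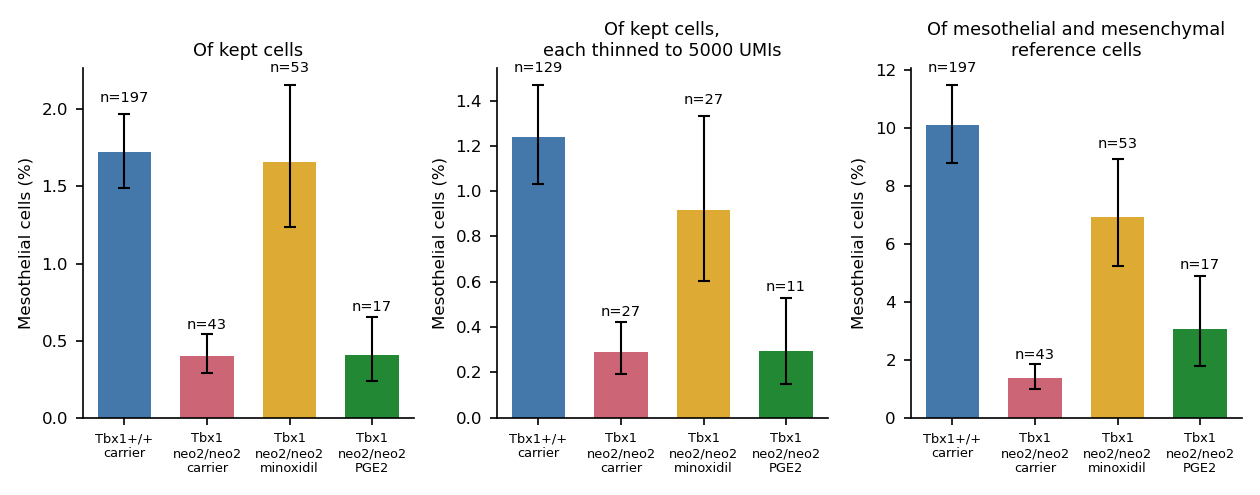
Share of mesothelial cells (percent, y axis) in each of the 4 libraries (x axis), of kept cells, of kept cells thinned to 5000 UMIs, and of mesothelial plus mesenchymal reference cells. Bars are shares, error bars exact 95% intervals for counting error only, and n is the number of mesothelial cells; the Tbx1+/+ carrier and minoxidil bars stand above the other 2 in all 3 panels.

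Genes that the gate did not use describe the cells further. Wt1, Aldh1a2 and Itm2a were named together with the gate, with earlier results of these data known, so their values are a description. Wt1 (chromosome 2, 105126529 to 105173616, plus strand) was detected in 97.0%, 95.3%, 98.1% and 94.1% of mesothelial cells of Tbx1+/+ carrier, Tbx1neo2/neo2 carrier, minoxidil and PGE2, the order used from here on. Aldh1a2 (chromosome 9, 71215789 to 71296243, plus strand) was detected in 99.0% and 94.1% of them in Tbx1+/+ carrier and PGE2 and in every one in the other 2 libraries, and Itm2a, an integral membrane protein gene on the X chromosome (107397099 to 107403376, minus strand), in all mesothelial cells of every library. Both Wt1 and Aldh1a2 were found in 189, 41, 52 and 16 cells, and the 1 cell with neither was in the PGE2 library. Of a list of 20 mesothelial genes, the median cell held 15, 16, 17 and 17, against 1 to 3 in mesenchymal reference cells and 4 to 5 in epithelial reference cells (at least 2 UMIs of Epcam and Krt8, no Upk3b, Pdgfra, Ptprc or Cdh5). The list includes Wt1 and Aldh1a2 and was chosen with earlier results of these data known, so these counts too are a description. These reference cells differ in depth from mesothelial cells, and the counts are not thinned.

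Summed levels, as UMI counts scaled to the summed UMIs of the cell group (CPM), were next set against all other kept cells, against the mesenchymal and against the epithelial reference cells. A gene was counted when it differed at least 2-fold in the same direction in all 4 libraries with at least 50 CPM in the higher group of each. Because the cells were picked by 2 genes of the same transcriptomes, these counts describe the gated cells and carry no test. Of 2954 genes at that level, 252 (8.53%) were higher in mesothelial cells than in all other kept cells and 132 (4.47%) were lower. Against mesenchymal cells 153 of 2984 (5.13%) were higher and 85 (2.85%) lower, and against epithelial cells 401 of 3226 (12.4%) were higher and 358 (11.1%) lower. These counts rested in part on the Tbx1neo2/neo2 carrier library: with the call needed in the other 3 libraries alone, 395 genes were higher and 305 lower than in other kept cells and 191 lower than in mesenchymal cells. Across 3384 to 3632 genes per library, log2 CPM in mesothelial cells correlated with that in mesenchymal reference cells at r = 0.690 to 0.746 and with epithelial reference cells at r = 0.453 to 0.522, where the cell groups share library and gene composition and genes are not replicates.

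The 20 leading genes over all other kept cells, by mean log2 ratio over the 4 libraries, were Lrrn4, Sfrp5, Gata4, Upk1b, Apela, Myrf, Fmo2, Ildr2, Tm4sf5, Myl7, Angptl7, Fabp3, Krt7, Arhgap22, Rspo1, Plxna4, Tnnt2, Gpm6a, Cpz and Tmem151a. This ranking covers genes that reached the level limit. Lrrn4 stood at 153, 226, 151 and 212 CPM in mesothelial cells and at 0.168 to 0.920 CPM in other kept cells, a mean log2 ratio of 9.05 (7.38 to 10.39 over the libraries). Gata4, a zinc finger factor of heart and mesothelium, stood at 80.6, 94.0, 91.7 and 109.5 CPM (mean log2 ratio 8.63). Myrf, a membrane-tethered transcription factor, stood at 225, 191, 269.9 and 275 CPM and no library had it in fewer than 94.1% of its mesothelial cells. All 3 genes were at least 7.29 higher on the log2 scale on average, and in each the 4 libraries lay close together while the other cells were near 0. The uroplakin Upk1b, a tetraspanin of urothelial plaques, was at 114, 87.7, 86.8 and 117 CPM (mean log2 ratio 8.13). It was the only other uroplakin at this level, since Upk1a and Upk2 had at most 3.71 CPM in any library and Upk3a had 0 UMIs in all 4.

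Wt1 was at 235 (95% interval 220.2 to 249.9), 168 (145 to 194), 237 (217 to 258) and 230.2 CPM (191 to 274). Its level in other kept cells was 1.94 to 5.93 CPM, and in mesenchymal reference cells 23.0, 6.91, 25 and 13 CPM. The mean log2 ratio was 5.77 over other kept cells, 3.84 over mesenchymal and 10.68 over epithelial reference cells, so the nearest level of this gene was in the mesenchyme. Tbx18, a T-box factor of epicardium and other mesothelia, was at 255, 294, 258 and 230.2 CPM with a mean log2 ratio of 5.76 over other kept cells. Tbx1 itself, the targeted gene, had 5, 0, 3 and 0 UMIs in mesothelial cells, and 1.15 to 2.47 CPM in all other kept cells, so its level here could not be compared between genotypes at this depth.

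**Figure D2:**
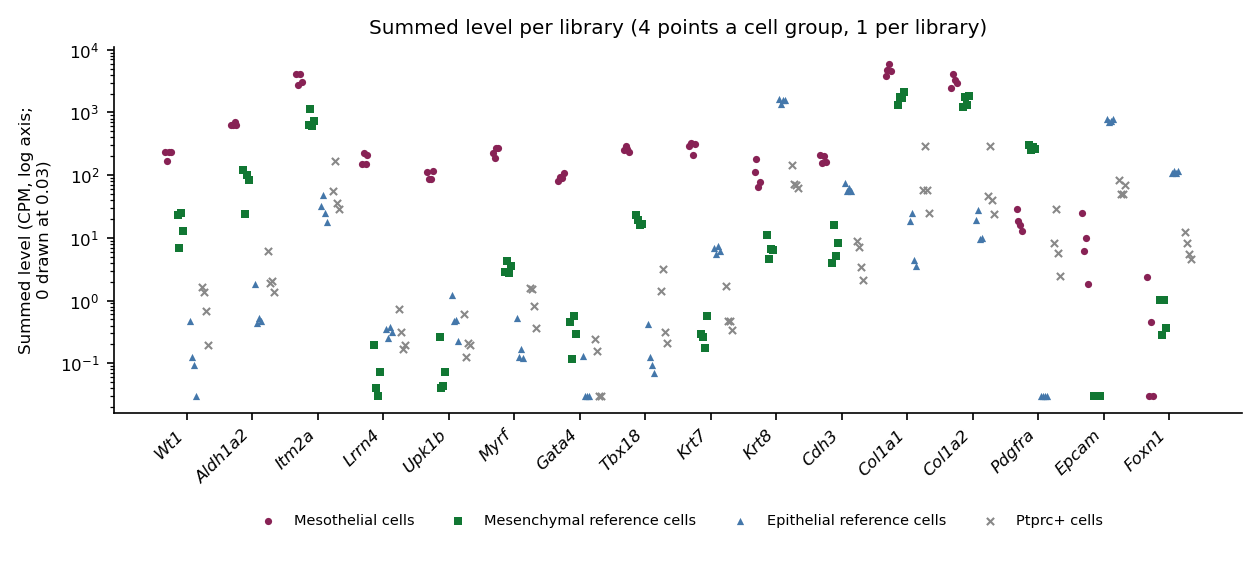
Summed level (CPM, log axis, 0 drawn at 0.03) of 16 genes in mesothelial cells, mesenchymal reference cells, epithelial reference cells and cells with at least 2 Ptprc UMIs, with 1 point per library and cell group. Wt1, Aldh1a2, Lrrn4, Upk1b, Myrf and Gata4 are highest in mesothelial cells, and Col1a1 and Col1a2 lie above their mesenchymal levels. Epcam and Foxn1 of mesothelial cells lie below their levels in epithelial cells. Epcam was used to choose the epithelial cells and Col1a2 the mesenchymal cells, so nothing is read from their positions against those groups.

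Of the 20 genes in the mesothelial list, 15 of the 16 at the level limit were higher than in mesenchymal cells, among them the keratins Krt7 (288, 329, 212 and 317 CPM), Krt8 (112, 184, 65.8 and 78.0 CPM) and Krt18 (185, 138, 146 and 102 CPM). Against epithelial reference cells Krt7 was higher (mean log2 ratio 5.44) whereas Krt18 was lower (-3.79). Krt8 (-3.92) was used to choose the epithelial cells, so nothing is read from its ratio. Of 20 junction and polarity genes, 4 reached the level against mesenchymal cells and 2 were higher: the cadherin Cdh3 (208, 156, 199 and 163 CPM, mean log2 ratio 4.63) and desmoplakin Dsp (73.4, 59.1, 57.3 and 74.3 CPM, 4.46). Epithelial cadherin Cdh1 had 1.79 to 5.05 CPM and Epcam 1.86 to 24.8 CPM, and Cdh1 was called lower than in epithelial cells, which were chosen by Epcam. Of the 12 surface coat genes, Podxl, Pdpn and Sdc4 were higher than in mesenchymal cells, with Podxl, a sialomucin, at 126, 77.0, 96.7 and 104 CPM. Median log2 ratios against mesenchymal cells were 5.21 for the mesothelial list and 2.40 for the junction list. For all genes at the level limit the median was -0.14. A gene can reach that limit through the group where it is high, and Wt1 and Aldh1a2 were named with the gate. These medians therefore describe the gated cells and carry no test. Against epithelial cells the junction list had a median of -0.90 over 7 genes, beside -0.25 for all genes. Epcam, which chose the epithelial cells, is 1 of the 7, so nothing is read from this median. Of the others, Cdh3 was higher and Dsp lower (mean log2 ratio -2.45).

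The mesenchymal side was split. Fibrillar collagens were abundant: Col1a1 stood at 3866, 4766, 6006 and 4653 CPM in mesothelial cells against 1314, 1769, 1704 and 2134 CPM in mesenchymal reference cells, a mean log2 ratio of 1.48 (1.12 to 1.82). Col3a1 was at 2216 to 2842 CPM, with a mean log2 ratio of -0.19 that fell on both sides of 0. Pdgfra, which chose the mesenchymal cells, had only 29.3, 18.8, 16.1 and 13 CPM. Of the 12 listed genes 4 were lower than in mesenchymal cells, and apart from Pdgfra these were Lum (75.3, 90.4, 104 and 128 CPM), the matricellular Postn (26.7, 70.7, 29.1 and 0 CPM) and the homeobox gene Prrx1 (23.3, 36.7, 8.06 and 14.9 CPM). Vimentin, at 1519, 1481, 1730 and 1576 CPM, differed from mesenchymal cells by a mean log2 of -0.07. Among 12 genes of the epithelial to mesenchymal transition, Snai2 and Zeb2 were lower than in mesenchymal cells and Tbx18 alone was higher. Of 20 basement membrane genes, Col4a5 (98.4, 101, 103 and 96.5 CPM) was the 1 called higher than in mesenchymal cells, and Col4a5, Nid1 and Nid2 were higher than in epithelial cells.

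Of 6 genes of retinoic acid synthesis, only Aldh1a2, which was named together with the gate, reached the level limit. Aldh1a2 was at 635 (611 to 660.1), 624 (578 to 672), 709 (674 to 745) and 641 CPM (575 to 712) in mesothelial cells. In mesenchymal reference cells it was at 123, 24.1, 101 and 84.4 CPM, and in epithelial reference cells at 0.442 to 1.87 CPM. The 4 mesothelial levels lay within 1 narrow range, and the lowest of them was above the highest mesenchymal level. The other 5 synthesis genes were low, with the retinol dehydrogenase Rdh10 at 26.2, 16.1, 17.9 and 5.57 CPM. Among binding proteins, Crabp1 and Crabp2, which bind retinoic acid, were lower than in mesenchymal cells (-2.40 and -3.23). Of the 4 genes that reduce or break down retinoids, Dhrs3 was at 39.0 to 58.2 CPM and the Cyp26 enzymes at 0 to 1.44 CPM. None of the 6 receptor genes reached 50 CPM in any library, with Rarb at 32.2, 28.6, 26.0 and 20.4 CPM and Rxrb at 26.2, 20.6, 30.0 and 33.4 CPM the most abundant.

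Among 40 ligand genes, Rspo1, a secreted amplifier of Wnt signals, was higher than in both reference groups at 201, 150.4, 192 and 163 CPM (mean log2 ratio 4.86 over mesenchymal and 8.45 over epithelial cells). Igf2 and Dlk1 were higher than in all other kept cells, at 898 to 1392 and 1253 to 2391 CPM, but differed from mesenchymal cells by a mean log2 of only 0.47 and 0.08. Il7 and Kitl, growth factors for early thymocytes made by thymic epithelium, were lower than in epithelial cells, at 0 to 6.01 and 17.5 to 19 CPM. Of 29 receptor genes only 5, 8 and 7 reached the level limit against other kept, mesenchymal and epithelial cells, and among these Fgfr1 was lower than in mesenchymal cells, as was Pdgfra, which chose them. Fgfr2 and Notch1 were lower than in epithelial cells, and none was higher in the 3 comparisons. Prostacyclin synthase Ptgis was higher than in all 3 groups (161, 143, 187 and 241 CPM), and Hpgd, which degrades prostaglandins, was higher than in mesenchymal cells (213, 142, 179 and 128 CPM). Receptors for PGE2 were low, with Ptger4 at 8.95 to 16.6 CPM. Of the minoxidil target list, the channel subunit Kcnj8 was at 30.4 to 48.3 CPM and Abcc9 at 1.79 to 7.21 CPM.

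Itm2a, Capn6, Svep1 and a gene printed as Adh1a2 mark a mesenchymal cluster that the study defined on these same samples. The printed symbol is read here as Aldh1a2. The presence of these genes is therefore not independent evidence. Itm2a was at 4096, 2694, 4096 and 3099 CPM, Capn6, a calpain-like gene, at 266, 416, 374 and 336 CPM, and Svep1, a large matrix protein gene, at 20.4, 40.3, 25.1 and 40.8 CPM. The first 2 were higher than in mesenchymal cells in every library (mean log2 ratios 2.20 and 2.76), whereas Svep1 did not reach the level limit. In mesenchymal reference cells Itm2a was highest in Tbx1neo2/neo2 carrier (1128 CPM, against 601 to 729 CPM in the other 3), the library with the lowest mesothelial value.

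Genes of other cell types were examined in the same sums. Heart muscle genes split: Tnnt2 (223, 117, 253 and 143 CPM) and Myl7 (72.6, 368, 109 and 154 CPM) were among the leading genes, while Nkx2-5 and Nppa had 0 UMIs and Myh6, Myh7, Myl2 and Actn2 at most 0.895 CPM. Desmin, Des, was likewise higher than in mesenchymal cells (118, 93.1, 119 and 137 CPM), whereas Myf5 and Pax7 had 0 UMIs. Blood cell genes summed to 3.71 to 16.8 CPM over 10 genes and endothelial genes to 29.7 to 38.0 CPM, with Ptprc and Cdh5 of these lists fixed at 0 by the gate. Macrophage genes summed to 2.89 to 11.6 CPM and airway and lung genes to 2.24 to 5.57 CPM. Of the thymic epithelial list, which summed to 546 to 608 CPM, the lysosomal protease Ctsl gave 482, 484, 495 and 544 CPM, and Foxn1, the defining factor of thymic epithelium, had 10, 0, 1 and 0 UMIs.

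Single cells carried most of the RNA of some foreign genes. In the PGE2 library 1 cell held 8986 of 9071 erythroid UMIs (99.1%), which put the list at 16841 CPM against 114 to 156 CPM in the other libraries, and the list fell to 170.3 CPM without it. That cell also had 13 Upk3b, 7 Wt1 and 5 Aldh1a2 UMIs. In Tbx1neo2/neo2 carrier 1 cell held 57 of 60 UMIs of the muscle factor Myog and 89 of 115 of cardiac actin Actc1, and in Tbx1+/+ carrier 1 cell held 118 of 155 UMIs of Krt5 and 172 of 233 of Krt17, both keratins of basal epithelium. For this reason each call between libraries below was also made without, for each gene and library, the cell with the most UMIs of that gene.

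Cells of 1 library varied more in some genes than in others. Among 196 Tbx1+/+ mesothelial cells thinned to 5000 UMIs, the variance of a gene's UMIs was 1.07 times its mean at the median of 3429 genes and 1.70 times at the 95th percentile. Mgp, a secreted inhibitor of calcification, reached 14.4 times, with quartiles of 1719, 4290 and 6958 CPM per cell, and was detected in 196 of 197 cells. Col1a1 reached 8.51 times. Stmn2, a neuronal microtubule gene, reached 7.28 times and was seen in 15.2% of the cells, and Crct1, a gene of the epidermal cluster, 4.07 times in 27.4%. Wt1 and Aldh1a2 were more even, with quartiles of 149, 218 and 305 CPM and of 381, 588 and 846 CPM.

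**Figure D3:**
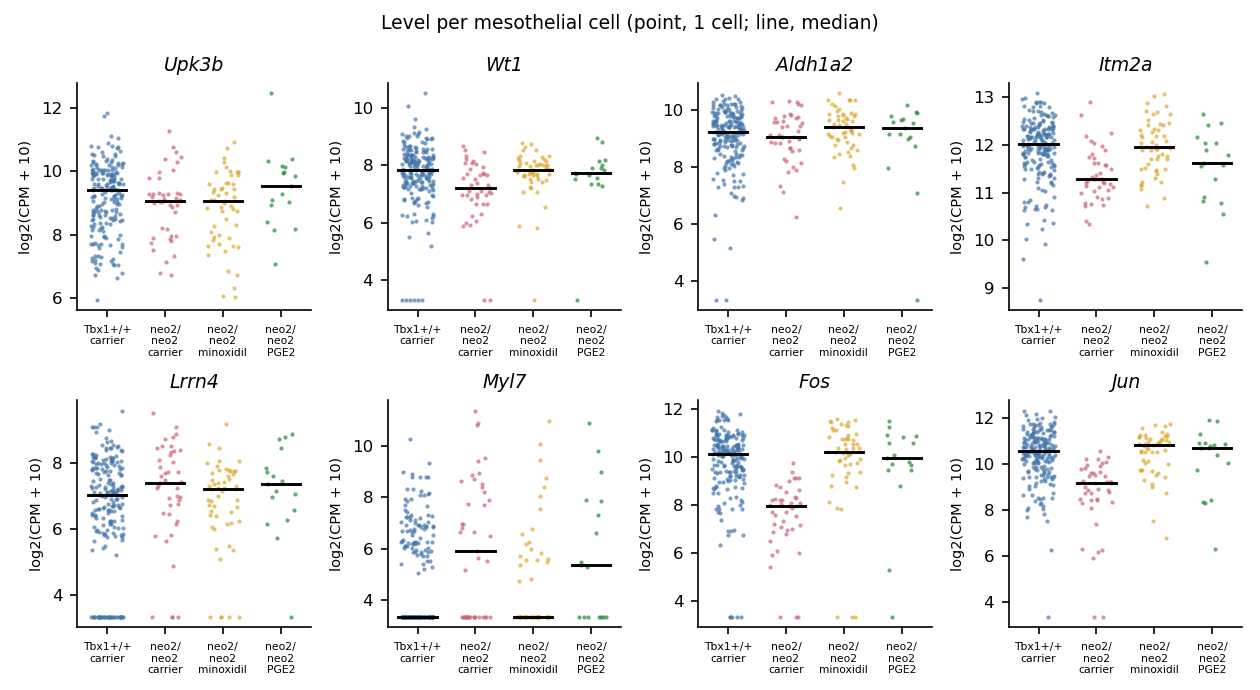
Level of 8 genes per mesothelial cell, as log2(CPM + 10) on the y axis, by library on the x axis (neo2/neo2 stands for Tbx1neo2/neo2). Each point is 1 cell and each line a median; Upk3b has no cell at 0 because it set the gate, Wt1, Aldh1a2 and Itm2a are found in nearly every cell, Myl7 is at 0 in many, and Fos and Jun are lower in Tbx1neo2/neo2 carrier.

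Mesothelial cells were then compared between libraries, to ask how their RNA stood in the hypoplastic lobes and after each drug. A gene was called when its summed levels differed at least 2-fold with Poisson intervals that did not overlap and at least 50 CPM in the higher library, a limit that 3112, 3061 and 3183 genes reached in the 3 comparisons. Between Tbx1neo2/neo2 carrier and Tbx1+/+ carrier 58 genes (1.86%) were higher and 29 (0.932%) lower. With minoxidil 47 (1.54%) were higher and 61 (1.99%) lower than in Tbx1neo2/neo2 carrier, and with PGE2 52 (1.63%) were higher and 41 (1.29%) lower. Both drug comparisons share the Tbx1neo2/neo2 carrier library, so a value that is unusual there moves all 3 comparisons. Without the cell richest in each gene, 33 of the 58, 26 of the 29, 45 of the 47, 35 of the 61, 29 of the 52 and 25 of the 41 calls were still made.

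Most marker genes of the mesothelium stood within 2-fold. Between the carrier libraries Aldh1a2 differed by a log2 of -0.03 (95% interval -0.15 to 0.09), Wt1 by -0.48 (-0.71 to -0.25), Itm2a by -0.60 (-0.66 to -0.55) and Capn6 by 0.65 (0.49 to 0.80). With minoxidil the same 4 differed by 0.18, 0.50, 0.60 and -0.16 and with PGE2 by 0.04, 0.45, 0.20 and -0.31. Wt1 and Itm2a were lowest in Tbx1neo2/neo2 carrier. The exceptions of the mesothelial list were mesothelin, Msln (36.8, 85.0, 30.9 and 102 CPM), called higher in Tbx1neo2/neo2 carrier than in Tbx1+/+ carrier and lower with minoxidil, and Tcf21, a factor of mesothelium-derived fibroblasts (52.9, 24.2, 64.9 and 68.7 CPM), called lower in Tbx1neo2/neo2 carrier and higher with both drugs, the PGE2 call being lost without the richest cell. Krt8 (112, 184, 65.8 and 78.0 CPM) was called lower with both drugs. In Ptprc-positive cells, taken here as a measure of free RNA, Msln had at most 0.169 and Tcf21 at most 3.36 CPM, but Krt8 stood at 145, 72.7, 69.1 and 61.5 CPM.

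**Figure D4:**
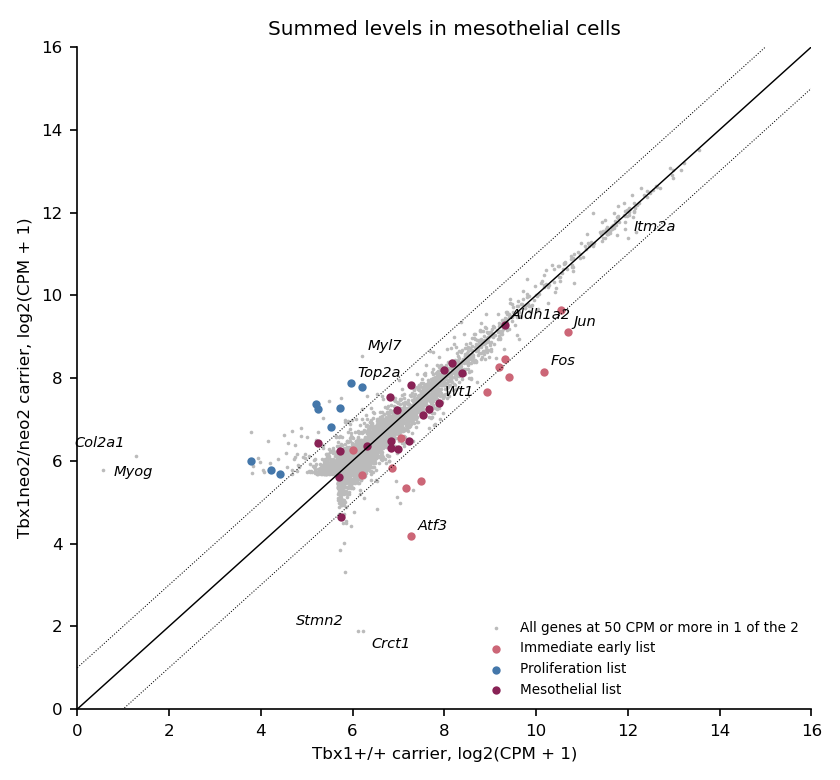
Summed level of each gene in mesothelial cells, as log2(CPM + 1), in Tbx1+/+ carrier (x axis) and Tbx1neo2/neo2 carrier (y axis), with lines of equality and of 2-fold difference. Immediate early genes such as Fos, Jun and Atf3 lie below the diagonal, proliferation genes such as Top2a above it, and Aldh1a2, Wt1 and most mesothelial genes between the dotted lines.

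Immediate early genes were among the genes that differed. Of the 16 in the list, 14 reached the level between the carrier libraries. Of these, 8 were called lower in Tbx1neo2/neo2 carrier and none higher, where 0.932% of all genes at the level were lower. The median log2 ratio of the list was -1.17, beside -0.01 for all genes tested. Fos (chromosome 12, 85473890 to 85477273, plus strand) stood at 1159 (1126 to 1192), 284 (253 to 317), 1531 (1480 to 1583) and 1225 CPM (1134 to 1323). Jun stood at 1648, 552, 1660 and 1420 CPM and Atf3, a stress-induced factor, at 155, 17, 254 and 154 CPM. With minoxidil, 242 of 567 Atf3 UMIs (42.7%) were in 1 cell, the largest of that library. In each gene the Tbx1neo2/neo2 carrier library was low and the other 3 lay well above it. The log2 ratios between the carrier libraries were -2.03 (-2.20 to -1.87) for Fos, -1.58 for Jun and -3.19 for Atf3. The other members called were Fosb, Junb, Ier2, Zfp36 and Dusp1, and all 8 calls held without the richest cell. With minoxidil 10 of 15 were called higher (1.54% of all genes) and Klf2 lower, a call lost without the richest cell. With PGE2 10 of 15 were called higher (1.63% of all genes). The list medians were 1.35 and 1.20 on the log2 scale, beside -0.08 and 0.01 for all genes tested. Socs3, the feedback inhibitor of cytokine receptors, and the heat shock cochaperone Dnajb1 moved alongside (159, 38.5, 208 and 186 CPM, and 130.1, 30.4, 99.8 and 109.5 CPM), while the abundant heat shock gene Hspa8 lay between 1290 and 1519 CPM.

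Ratios of the same sign were found in the other cell groups. Fos differed between the carrier libraries by a log2 of -2.90 in mesenchymal, -2.06 in epithelial and -1.93 in Ptprc-positive cells, and Atf3 by -4.33, -4.58 and -1.87. Of the 29 genes lower in mesothelial cells of Tbx1neo2/neo2 carrier, 16 reached the level in mesenchymal reference cells and 14 of these were called lower there too, where 3.39% of all 3300 genes at the level were lower. In epithelial cells 3 of 16 were called lower (0.467% of all 2999 genes) and in Ptprc-positive cells 4 of 12 (0.403% of 2976). Of the 58 higher genes, 11 of 38 were called higher in mesenchymal (3.70% of all), 0 of 26 in epithelial (0.133%) and 4 of 30 in Ptprc-positive cells (2.52%). The size differed between cell groups, and Jun differed by -1.03, -0.56 and -0.22 in mesenchymal, epithelial and Ptprc-positive cells. Fos stood at 331, 87.0, 262 and 308 CPM in Ptprc-positive cells, below its mesothelial level in each library.

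**Figure D5:**
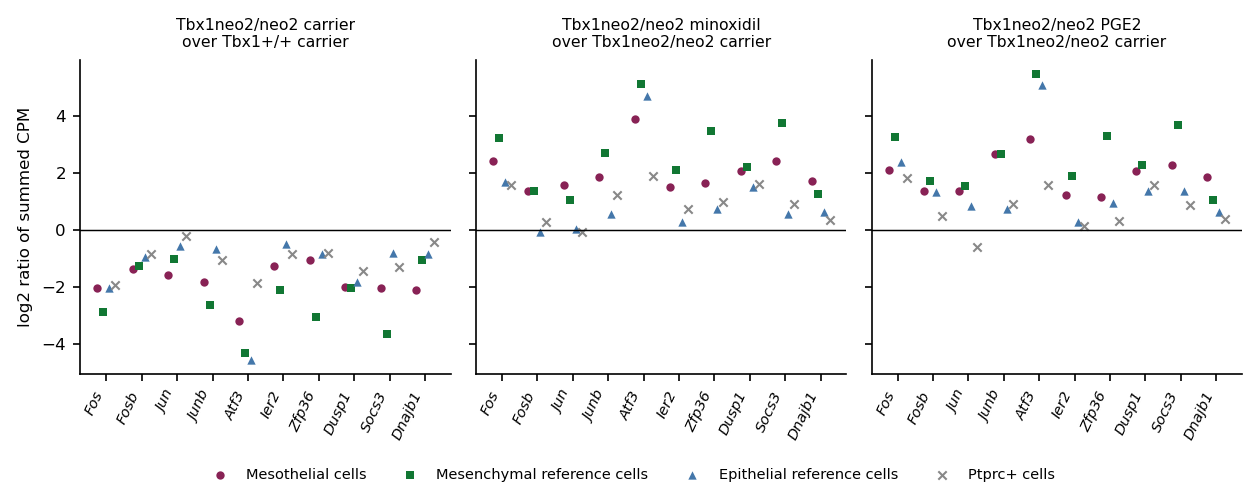
Log2 ratio of summed CPM (y axis) for 10 genes (x axis) in 3 comparisons of libraries (panels), in mesothelial, mesenchymal reference, epithelial reference and Ptprc-positive cells. The points of the left panel lie below 0 in all 4 cell groups, and the points of the other panels lie above 0 except those of Fosb in epithelial cells (-0.07) and Jun in Ptprc-positive cells (-0.09) with minoxidil, and of Jun in Ptprc-positive cells (-0.59) with PGE2.

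The promoters of Fos and Fosb are shown as those of 2 genes called lower in Tbx1neo2/neo2 carrier, with capitals on TGACG or its reverse complement CGTCA, the core letters of the cAMP response element. They lie at chr12:85473640-85473939 (plus strand) and chr7:19309996-19310295 (minus strand) of GRCm38.p6.
Fos: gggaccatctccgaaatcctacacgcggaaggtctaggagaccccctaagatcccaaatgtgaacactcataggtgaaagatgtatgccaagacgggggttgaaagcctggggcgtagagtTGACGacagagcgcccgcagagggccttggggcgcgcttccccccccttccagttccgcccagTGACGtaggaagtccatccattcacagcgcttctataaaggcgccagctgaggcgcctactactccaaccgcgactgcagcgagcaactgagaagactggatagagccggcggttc
Fosb: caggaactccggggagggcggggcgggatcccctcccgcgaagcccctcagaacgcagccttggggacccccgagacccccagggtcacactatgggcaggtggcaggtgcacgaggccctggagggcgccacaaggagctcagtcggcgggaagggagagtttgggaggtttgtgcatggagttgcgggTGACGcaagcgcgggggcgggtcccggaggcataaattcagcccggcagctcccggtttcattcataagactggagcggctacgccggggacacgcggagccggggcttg
Of the 16 listed genes 14 had a promoter entry and 9 of these (64.3%) held TGACG on either strand, against 21.0% of all promoters, and 2 held the full TGACGTCA, a run that contains TGACG, against 1.88%. The window of Jun, which was also called lower in Tbx1neo2/neo2 carrier, held no TGACG on either strand. GGAATG was in 1 of the 14.

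Proliferation genes ran the other way. Of the 10 listed, 9 reached the level and all 9 were called higher in Tbx1neo2/neo2 carrier than in Tbx1+/+ carrier. Of all genes at the level 1.86% were called higher. The median log2 ratio of the list was 1.61, beside -0.01 for all genes tested. Among the 9 were Top2a (61.6, 233, 101 and 139 CPM) and Mki67 (36.8, 150.4, 55.9 and 91.0 CPM). With minoxidil 8 of 9 were called lower than in Tbx1neo2/neo2 carrier (1.99% of all genes) and with PGE2 only Cenpf (1.29% of all genes). The list medians were -1.26 and -0.73, beside -0.08 and 0.01 for all genes tested. Counted by cells thinned to 5000 UMIs, 12 of 196 (6.12%, 3.20 to 10.5), 10 of 43 (23.3%, 11.8 to 38.6), 6 of 53 (11.3%, 4.27 to 23.0) and 3 of 16 (18.8%, 4.05 to 45.6) had at least 3 of the 10 genes. Without thinning the shares were 21.8%, 30.2%, 20.8% and 47.1%, and the intervals of the 2 carrier libraries then overlapped (16.3 to 28.3 and 17.2 to 46.1). Thinned mesenchymal reference cells stood at 24.2% and 20.8% in the carrier libraries, so a higher share in Tbx1neo2/neo2 carrier was not seen there. Several of these calls rest on few cells: Ccnb1 had 27 of its 70 UMIs in 1 cell of Tbx1neo2/neo2 carrier and was not called without it. Of all UMIs of the list in that library, 1 cell held 418 of 1388 (30.1%). The richest cell held 22.3% in Tbx1+/+ carrier, 35.2% with minoxidil and 37.8% with PGE2. Ptprc-positive cells, which include dividing blood cells, held Top2a at 426 to 547 CPM and Mki67 at 194 to 261 CPM, above the mesothelial levels.

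Of the other genes higher in Tbx1neo2/neo2 carrier, Myog (log2 6.80) and Actc1 (3.01) were no longer called without the single muscle-gene cell described above. Col2a1, the cartilage collagen, stood at 1.44, 68.9, 10.3 and 7.43 CPM (log2 5.58, 4.39 to 7.07) and was detected in 34.9% of Tbx1neo2/neo2 carrier mesothelial cells against 3.05% of Tbx1+/+ cells. It also stood at 54.3 CPM in Ptprc-positive cells of that library against 2.12 CPM in Tbx1+/+ carrier, close to its mesothelial level, and differed by a log2 of 7.96 in mesenchymal cells. Myl7, the atrial myosin light chain, was at 72.6, 368, 109 and 154 CPM (log2 2.34, 2.12 to 2.56), with at most 0.412 CPM in Ptprc-positive cells. Its call held without the richest cell, but the level was uneven between cells. In Tbx1neo2/neo2 carrier 58.1% of mesothelial cells had a Myl7 UMI and the median per cell was 50.1 CPM. The highest cells there stood at 2676.5, 1919.4 and 1817.1 CPM, so the summed level rests largely on a few cells. In Tbx1+/+ carrier 45.2% of cells had a Myl7 UMI and the median was 0. Igfbp3 (21.6, 97.6, 13 and 42.7 CPM) and Cenpe (16.8, 88.6, 22.4 and 24.1 CPM) were called as well and held, while Anxa1 (13.2, 57.3, 25.5 and 11.1 CPM) and Hmmr (14.4, 66.2, 22.4 and 22.3 CPM) did not. Of these 4, Igfbp3 stood at 1.59 to 18.7 CPM in Ptprc-positive cells, Anxa1 at 8.89 to 17.3 CPM, and the cell cycle genes Cenpe and Hmmr at 97.2 to 143 CPM.

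Among genes lower in Tbx1neo2/neo2 carrier outside the immediate early list, Crct1 stood at 73.8, 2.69, 26.0 and 22.3 CPM (log2 -4.78, -7.07 to -3.22) and Stmn2 at 68.5, 2.69, 13.9 and 0 CPM (-4.67). Both rested on 3 UMIs in Tbx1neo2/neo2 carrier. Crct1 was near 0 in Ptprc-positive cells (at most 0.296 CPM), whereas Stmn2 stood there at 87.5, 39.3, 43.7 and 22.8 CPM, above its mesothelial level in each library. Krt17 (56.0, 8.95, 4.48 and 9.28 CPM) and 1810011O10Rik (51.9, 13.4, 46.1 and 22.3 CPM) were not called without the richest cell. Among ligands, Efnb2 was lower in Tbx1neo2/neo2 carrier and higher with minoxidil (75.3, 33.1, 77.0 and 52.0 CPM).

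With minoxidil the largest increases included Lce3c, Atf3, Pgk1, Nme2 and Grcc10. Nme2, a nucleoside diphosphate kinase gene (10.8, 9.85, 71.2 and 16.7 CPM), had log2 ratios of 2.85 in mesothelial, 3.39 in mesenchymal and 3.41 in epithelial cells. Nme2 has a near-identical neighbour with which reads can be split, and minoxidil stood apart from the other 3 libraries, so its values are uncertain. Of the 47 genes higher with minoxidil, 36 reached the level in mesenchymal cells and 26 were called higher there as well (4.02% of all genes), against 15 of 30 in epithelial (1.02%) and 18 of 30 in Ptprc-positive cells (1.33%), where 1 was called lower. Of the 61 lower genes, 43 reached the level in mesenchymal cells, where 10 were called lower (3.54% of all) and 4 higher, and 0 of 24 were called lower in epithelial (0.238%) and 4 of 29 in Ptprc-positive cells (2.93%). Lce3c (47.9, 3.58, 55.0 and 3.71 CPM), of the same epidermal cluster as Crct1, was not called without the richest cell. The 6 largest decreases were Myog, Acta2, Actc1, Igfbp3, Col2a1 and Cxcl12, of which Acta2, smooth muscle actin, was at 44.0, 172, 12.1 and 108 CPM with 100 of 192 UMIs of Tbx1neo2/neo2 carrier in 1 cell. Of these 6, Acta2, Igfbp3 and Col2a1 were still called without the richest cell. Acta2 stood at 5.44, 49.8, 16.4 and 11.1 CPM in Ptprc-positive cells.

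With PGE2 the 4 largest increases were the globins Hbb-bs, Hbb-bt, Hba-a2 and Hba-a1, all from the single cell described above and none called without it, followed by Atf3 (log2 3.18) and Junb (2.68), which held. Clu, a secreted chaperone, was also higher (58.0, 35.8, 60.0 and 111 CPM, against 6.94 to 15.1 CPM in Ptprc-positive cells). The 6 largest decreases were Postn, Myog, Col2a1, Fam46a, Cxcl12 and Tmem37, of which only Col2a1 was called without the richest cell. After thinning each cell to 5000 UMIs, Col2a1, Postn and Fam46a had 0 of 55000 UMIs with PGE2 and 5, 6 and 7 of 135000 in Tbx1neo2/neo2 carrier, too few to give a ratio. The chondrogenic factor Sox9 (40.2, 78.8, 42.5 and 18.6 CPM) was called lower, and in Ptprc-positive cells it stood at 8.91, 85.7, 6.95 and 2.64 CPM, as high in Tbx1neo2/neo2 carrier as in mesothelial cells. With 17 cells, a gene at 0 has an upper interval bound of 6.85 CPM. Of the remaining lists, Hoxb2, the Hox gene with the highest level, was at 111, 62.7, 66.7 and 57.6 CPM. Lox of the minoxidil target list (56.5, 123, 63.6 and 113 CPM) was called higher in Tbx1neo2/neo2 carrier than in Tbx1+/+ carrier but not without the richest cell.

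The libraries differed in the sex of their embryos. Xist, transcribed from the inactive X chromosome, without RNA of 4 Y-linked genes was found in 44, 3, 52 and 0 mesothelial cells, and Y-linked RNA without Xist in 132, 37, 0 and 15. All sexed mesothelial cells of the minoxidil library were thus female and all of the PGE2 library male, and for minoxidil sex and treatment cannot be told apart. The PGE2 library and its comparator were both mostly male. Within Y-positive cells, Fos was at 1152 CPM (1113 to 1192) in 132 cells of Tbx1+/+ carrier and at 288 CPM (255 to 324) in 37 cells of Tbx1neo2/neo2 carrier, and Myl7 at 87.1 (76.6 to 98.6) and 401 CPM (362 to 443). In the same cells Itm2a was at 4050 and 2594 CPM and Aldh1a2 at 641 and 622 CPM. Within Tbx1+/+ carrier, Xist-positive and Y-positive cells had 1171 and 1152 CPM of Fos and 657 and 641 CPM of Aldh1a2, with intervals that overlapped for both genes. Of 23 genes compared in this way, intervals overlapped for 10. Jun (1453 CPM, 1375 to 1535, against 1736 CPM, 1689 to 1785), Dusp1, Socs3, Hspa1a, Klf4, Hotairm1 and Myl7 were lower in Xist-positive cells, and Fosb, Ier2, Crct1, Stmn2, Itm2a and Calb2 were higher in them. Crct1 stood at 103 and 71.7 CPM, Stmn2 at 75.6 and 41.6 CPM and Itm2a at 4335 and 4050 CPM in Xist-positive and Y-positive cells. In Y-positive cells of Tbx1neo2/neo2 carrier Crct1 and Stmn2 were each at 3.05 CPM (0.630 to 8.92). Myl7 stood at 42.9 CPM (30.4 to 58.9) in Xist-positive cells of Tbx1+/+ carrier, below its value in Y-positive cells there. In the 3 Xist-positive cells of Tbx1neo2/neo2 carrier Fos was at 184 CPM (88.2 to 338) and Myl7 at 221 CPM (114 to 386), whereas Itm2a was at 4802 CPM (4237 to 5421), above its 2594 CPM in Y-positive cells of that library and with an interval that overlapped that of Xist-positive cells of Tbx1+/+ carrier (4198 to 4474). In the 15 Y-positive cells of the PGE2 library Fos was at 1234 CPM (1141 to 1333), Jun at 1412 CPM, Atf3 at 157 CPM and Myl7 at 157 CPM (125 to 195), against 572 CPM of Jun and 15.3 CPM of Atf3 in Y-positive cells of Tbx1neo2/neo2 carrier.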

How the data were processed

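Thymic lobes were profiled by droplet single-cell RNA sequencing. The deposited matrices hold raw UMI counts, not normalized by the authors; the submitters' processing notes name Cell Ranger 5.0.1, Seurat and mm10. The filter of 200 genes and 10% mitochondrial UMIs was applied to the deposited matrices, which held 11908, 11364, 3362 and 4471 barcodes and 292687940, 194023208, 151740600 and 156363845 UMIs. Groups came from the labels. The gate, the 35 gene lists and the rules for calls and named genes were chosen with earlier results of these data known. Member counts were summed per library, divided by the summed UMIs and scaled to CPM. Levels at 0 were taken at 3 counts when a ratio was formed. Named were the 20 largest ratios over other kept cells, the 10 largest and smallest between carrier libraries and the 6 for each drug, up to 4 abundant genes per list with any called where a list had 3 or fewer, and 8 fixed genes, without Xist and Y-linked genes. Further genes were named after their values were seen: Mgp for its spread, and genes held mostly by 1 cell. No test was run, as each condition had 1 library. Scrublet was run in scanpy 1.11.5 and members it marked were kept in the main values. Scripts used Python 3.11.15, numpy 2.4.6, scipy 1.17.1, pandas 2.3.3 and matplotlib 3.10.9, the call rule was tested on simulated data, and edgeR 4.0.16 gave TMM factors for 1 alternative scaling. Some genes that the rule named are not reported here.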

Additional observations from a re-analysis of the deposited data

Results flagged for a closer look

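Cxcl12, a chemokine that attracts blood cell precursors, had ratios of opposite sign in mesothelial and mesenchymal cells of the same libraries. With minoxidil over Tbx1neo2/neo2 carrier its log2 ratio was -2.66 in mesothelial cells and 2.09 in mesenchymal reference cells, and with PGE2 over the same library it was -2.92 and 2.08. The mesenchymal reference cells also differed in make-up. Their chondrogenic list summed to 1242 CPM in Tbx1neo2/neo2 carrier, 203 CPM with minoxidil and 183 CPM with PGE2. The part of this in the Cxcl12 ratios was not tested. The difference between the cell groups was not tested, both comparisons share the Tbx1neo2/neo2 carrier library, and neither mesothelial call was made without the cell richest in Cxcl12 in each library.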

How the results depend on the processing

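No paired analysis was possible because each condition had 1 library, so that no library could be left out between conditions. The comparisons with reference cells were made within each library. Leaving out each library in turn, chosen after seeing the data, gave 260 to 395 genes higher and 132 to 305 lower than in other kept cells and 88 to 191 lower than in mesenchymal cells, each highest without Tbx1neo2/neo2 carrier, and the other 3 counts stayed within 1.5 times their main values. With 1 library fewer to pass, counts can only stay or grow. Another mitochondrial limit (20%), Upk3b limits of 1 and 3 and TMM scaling kept the shares and the gene counts they were applied to close to the main values. Removing cells marked by Scrublet tells little, since it marked mesothelial cells in Tbx1+/+ carrier alone. The share of mesothelial cells with a 5% mitochondrial limit was 0.887%, 0.355%, 1.14% and 0.351% in Tbx1+/+ carrier, Tbx1neo2/neo2 carrier, minoxidil and PGE2. After thinning it was 1.24%, 0.289% and 0.915% in Tbx1+/+ carrier, Tbx1neo2/neo2 carrier and minoxidil, and of kept cells passing the 3 negative conditions it was 3.97%, 0.518%, 3.48% and 0.969%, so the folds between libraries went from 4.27 to 7.66 for the carriers, from 4.11 to 6.72 for minoxidil and from 1.02 to 1.87 for PGE2. With the 5% limit they were 2.50, 3.22 and 0.988, and after thinning 4.27, 3.16 and 1.02. With a limit of 10 CPM, which admits more genes, 591 were higher and 522 lower than in other kept cells, 411 and 278 against mesenchymal and 1013 and 864 against epithelial cells, and thinning left 71 lower than in other kept cells. Between the carrier libraries a fold of 1.5 called 146 higher and 115 lower, no limit on level 250 and 173, and the 5% mitochondrial limit 145 and 57, while thinning gave 50 lower, the mean of per-cell CPM 36 higher, and leaving out the richest cell of each gene, an alternative chosen after seeing the data, 33 higher. With minoxidil the counts were 133 higher and 194 lower at a fold of 1.5, 156 and 221 with no limit on level, 94 and 179 with the 5% mitochondrial limit, and 38 lower after thinning. With PGE2 they were 98 and 77 at a fold of 1.5, 81 and 108 with no limit, 102 lower with the 5% limit, 9 lower after thinning, 220 higher by the mean of per-cell CPM and 30 higher without the richest cell. Of the ratios of single named genes, thinning moved 36, left 19 about the same and put 4 on the other side of 0. For the last 4, setting a count of 0 in the lower library at the floor of 3 counts gave log2 ratios above 0. They were Krt17 between the carrier libraries (0.03) and Postn (0.30), Col2a1 (0.56) and Fam46a (0.07) with PGE2. These follow from the floor and are no change of direction. For the other results, apart from the larger number of genes or smaller number of cells admitted, the cause was not tested. The 17 cells of the PGE2 library limit its levels most.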
